A study of Arabidopsis thaliana with 8 samples.

Results

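Sucrose carriers and SWEET facilitators move sugar across plant membranes, and 8 of their genes in Arabidopsis thaliana were followed here: SUC1, SUC2, SUC3, SUC4, SUC5, SWEET11, SWEET12 and SWEET13. They were picked by locus, as the probes whose locus name on the array is AT1G71880, AT1G22710, AT2G02860, AT1G09960, AT1G71890, AT3G48740, AT5G23660 or AT5G50800, in that order of genes. All 8 were found, with 1 probe each, among 25665 loci on the array, and all 8 were well above background on all 8 arrays, so each was among the 20336 loci tested.

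In leaves, sucrose leaves the phloem parenchyma through SWEET11 and SWEET12, facilitators that let it pass down its gradient into the cell wall space. SUC2, a proton symporter of companion cells, then takes it up into the phloem against the gradient, using the proton gradient built by plasma membrane pumps such as AHA3. Other SUC carriers serve other places: SUC4 lies in the vacuole membrane and lets stored sucrose out, SUC1 works in roots, trichomes and pollen, and SUC5 in the seed.

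The study set 4 samples of 35S:MYB87-SRDX seedlings against 4 samples of wild-type seedlings, to find which transcripts differ between them. MYB87-SRDX is the R2R3-type MYB factor MYB87 joined to the SRDX repressor motif, and the 35S promoter drives it in most tissues. Both groups were of the Columbia-0 ecotype, 2 weeks old and labelled T2, with whole seedlings as the tissue and 5 seedlings per sample. Both grew on MS agar with 1% sucrose, at 23 °C, with days of 16 h light followed by 8 h dark. Hygromycin was in the medium of the MYB87-SRDX samples only. The sources used here do not give the number of transgenic lines, and MYB87 without SRDX was not a group. Total RNA was labelled with Cy3 and hybridised to one-colour Agilent arrays, 1 per sample.

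The 4 MYB87-SRDX arrays lay on 1 slide and the 4 wild-type arrays on another, so slide and genotype cannot be told apart, and neither can hygromycin and genotype. The 75th percentile of the processed signal was between 1539 and 2053 on the 8 arrays. Below, a level is the processed signal divided by that percentile of its own array, called the relative signal. Levels of one gene can be compared between arrays, but not levels of different genes, since each probe binds with its own strength. A difference is MYB87-SRDX minus wild type on the log2 scale, with its standard error (SE) from a limma fit over all loci, and a gene was called where its Benjamini-Hochberg adjusted p was below 0.05. MYB87 itself had a relative signal of 5.82 to 53.7 in MYB87-SRDX and 0.00575 to 0.0224 in wild type. Markers of leaf mesophyll, root endodermis, root hair and guard cells were well above background on all 8 arrays.

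Of the 8 genes, SUC2, SUC4, SUC1 and SWEET13 were lower in MYB87-SRDX, none was higher, and SUC3, SUC5, SWEET11 and SWEET12 did not pass the threshold. Over all loci tested, 12.5% were called lower and 15.1% higher. SUC2 and SUC4 were also lower on every MYB87-SRDX array than on any wild-type array, a pattern that 13.1% of all loci showed in that direction. An unadjusted p below 0.05 was reached by 5 of the 8 genes and by 41.4% of all loci. The median log2 difference of the 8 genes was -0.32, beside 0.01 over all loci tested. The count of 4 lower genes was 2 in 6 of the 8 fits that left out 1 array, all but those without wild type replicate 3 or MYB87-SRDX replicate 3. The calls of SUC2 and SUC4 held in all 8 of those fits.

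**Figure D1:**
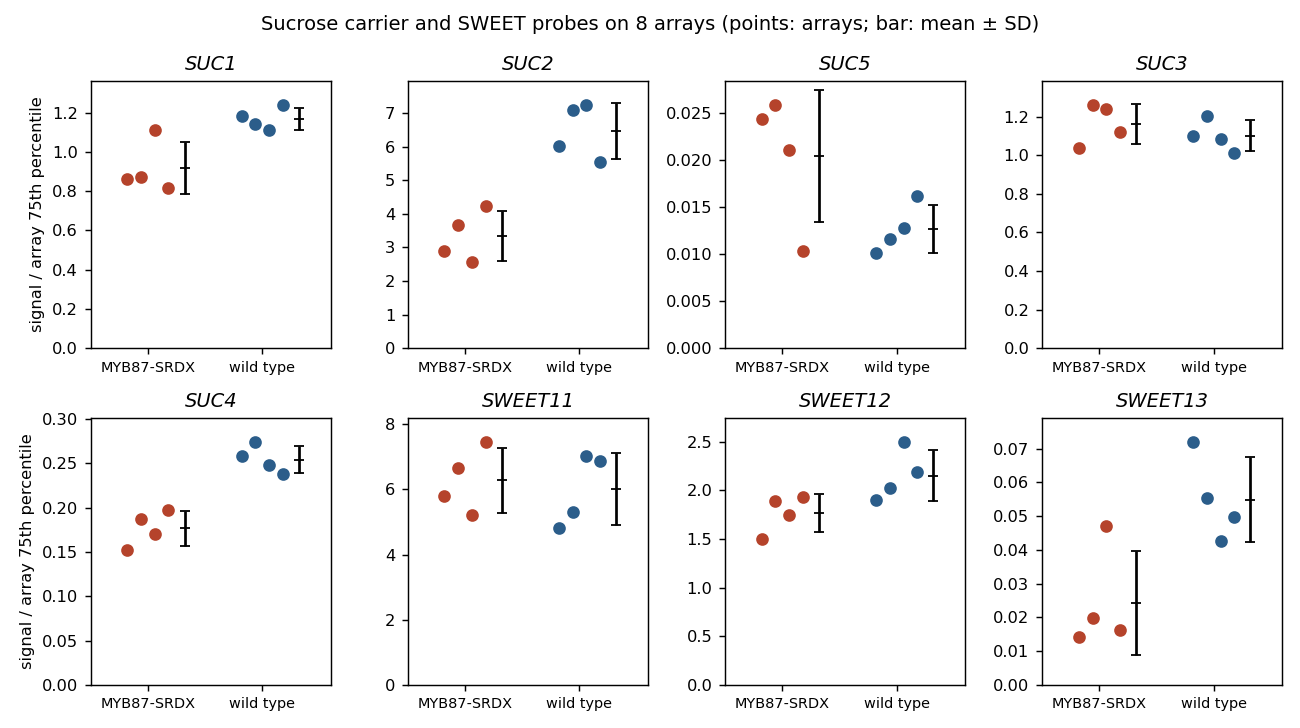
Relative signal (processed signal divided by the array's 75th percentile, linear axis from 0) of the 8 genes, with 1 point per array and the mean ± SD beside each group of 4. The MYB87-SRDX points lie below all wild-type points for SUC2 and SUC4, and the groups overlap for the other 6 genes.

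SUC2, the companion cell loader, had a relative signal of 2.91, 3.68, 2.57 and 4.23 in MYB87-SRDX replicates 1 to 4, against 6.02, 7.10, 7.24 and 5.53 in wild type replicates 1 to 4. Every transgenic array was below every wild-type array, and the highest transgenic array, replicate 4, was still well short of the lowest wild-type one. The means were 3.35 ± 0.75 in MYB87-SRDX and 6.47 ± 0.83 in wild type (SD, n = 4 each). The fitted log2 difference of -0.97 ± 0.17 (SE), 1.96-fold lower, had a 95% interval from -1.36 to -0.58 and an adjusted p of 0.00658 by limma. Over all loci tested, 5.69% had a larger difference in either direction. In RNA from whole seedlings, fewer companion cells and less SUC2 transcript per companion cell cannot be told apart.

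SUC4, the vacuolar sucrose exporter, had a relative signal of 0.152, 0.187, 0.170 and 0.197 in MYB87-SRDX, against 0.258, 0.274, 0.248 and 0.238 in wild type. The groups did not overlap, and the replicates of each group lay close together. The means were 0.177 ± 0.0198 in MYB87-SRDX and 0.254 ± 0.0155 in wild type (SD, n = 4 each). On the log2 scale SUC4 differed by -0.53 ± 0.09 (SE), 1.45-fold lower, with a 95% interval from -0.75 to -0.31 and an adjusted p of 0.00698 by limma. With the authors' deposited values in place of the scaled signal the difference was -0.55, and the adjusted p of 0.0692 was no longer past the threshold.

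SUC1, a plasma membrane sucrose symporter, had a relative signal of 0.861, 0.874, 1.11 and 0.818 in MYB87-SRDX, against 1.18, 1.14, 1.11 and 1.24 in wild type. MYB87-SRDX replicate 3 reached the lowest wild-type array, and the other transgenic arrays were below it. The log2 difference was -0.36 ± 0.10 (SE), with a 95% interval from -0.60 to -0.12, 1.28-fold lower, and an adjusted p of 0.0358 by limma. Without MYB87-SRDX replicate 3 the difference was -0.46 and the adjusted p 0.00713. Leaving out any other single array ended the call, with adjusted p-values between 0.0579 and 0.0929 by limma. So did normexp, the authors' values, dropping the filter on dim probes and a replicate block (adjusted p = 0.0914 by limma). Median scaling also ended it, at -0.27 with an adjusted p of 0.172 by limma.

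SUC5 stands directly beside SUC1 on chromosome 1, with no annotated gene between them in the RefSeq gene table, and its values lay the other way from those of SUC1. Its relative signal was 0.0244, 0.0258, 0.0210 and 0.0103 in MYB87-SRDX, against 0.0101, 0.0116, 0.0127 and 0.0162 in wild type. The first 3 transgenic arrays were above all wild-type arrays, while MYB87-SRDX replicate 4 was near the lowest wild-type array. The difference of 0.62 ± 0.30 (SE) on the log2 scale had a 95% interval from -0.06 to 1.3 and an adjusted p of 0.150 by limma. Without MYB87-SRDX replicate 4 it was 0.92, with an adjusted p of 0.0124 by limma, and SUC5 was then called higher. The probe was dim: the median pixel intensity of its spot was 97 to 127.5 over a local background of 49 to 59 in MYB87-SRDX, and 94 to 105 over 63 to 64.5 in wild type. The local background itself was thus lower on the MYB87-SRDX slide, and its part in the difference was not tested beyond the normexp correction, which gave 0.27.

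SUC3, a sucrose carrier with a long inner loop that is found in veins and in sink cells, had a relative signal of 1.04, 1.26, 1.24 and 1.12 in MYB87-SRDX, against 1.10, 1.21, 1.08 and 1.01 in wild type. The groups overlapped over most of their range. The log2 difference was 0.08 ± 0.09 (SE), and its 95% interval, from -0.12 to 0.28, does not include the differences fitted for SUC1, SUC2 and SUC4. The adjusted p was 0.524 by limma. With normexp background correction the value was 0.29, with an adjusted p of 0.0297, so SUC3 was called higher under that setting alone.

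SWEET11, an exporter of sucrose from the phloem parenchyma, had a relative signal of 5.80, 6.65, 5.20 and 7.46 in MYB87-SRDX, against 4.81, 5.31, 7.03 and 6.87 in wild type. Arrays of both groups were mixed through the range, with the lowest in wild type and the highest in MYB87-SRDX. Its log2 difference was 0.07 ± 0.16 (SE), with a 95% interval from -0.30 to 0.44 and an adjusted p of 0.777 by limma. Its sign turned with the setting, at -0.0196 after quantile scaling, -0.0313 without wild type replicate 1 and -0.0185 without MYB87-SRDX replicate 4.

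SWEET12, which shares that export with SWEET11, had a relative signal of 1.50, 1.89, 1.75 and 1.94 in MYB87-SRDX, against 1.90, 2.02, 2.50 and 2.19 in wild type. Only MYB87-SRDX replicate 4 was above the lowest wild-type array. The fitted log2 difference was -0.28 ± 0.11 (SE), with a 95% interval from -0.55 to -0.02. Its adjusted p of 0.0969 by limma missed the threshold, as it did in all 19 alternative settings, where the difference stayed between -0.34 and -0.19.

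SWEET13, a sucrose facilitator of the same clade, had a relative signal of 0.0142, 0.0198, 0.0470 and 0.0162 in MYB87-SRDX, against 0.0719, 0.0553, 0.0425 and 0.0498 in wild type. MYB87-SRDX replicate 3 was within the wild-type range, and the other transgenic arrays were below it. Its log2 difference was -1.32 ± 0.37 (SE), 2.50-fold lower, with a 95% interval from -2.17 to -0.48 and an adjusted p of 0.0319 by limma. Leaving out MYB87-SRDX replicate 3 gave -1.70 (adjusted p = 0.00357), and leaving out wild type replicate 3 also kept the call (adjusted p = 0.0491). Each of the other 6 removals ended it, with adjusted p-values from 0.0542 to 0.0834 by limma. This probe was also dim, with a spot median of 103 to 165 over a local background of 49.5 to 54.5 in MYB87-SRDX and 162 to 212 over 59 to 65 in wild type. With normexp correction the difference was -0.50, with an adjusted p of 0.0567 by limma. A replicate block also ended the call (adjusted p = 0.0825 by limma).

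**Figure D2:**
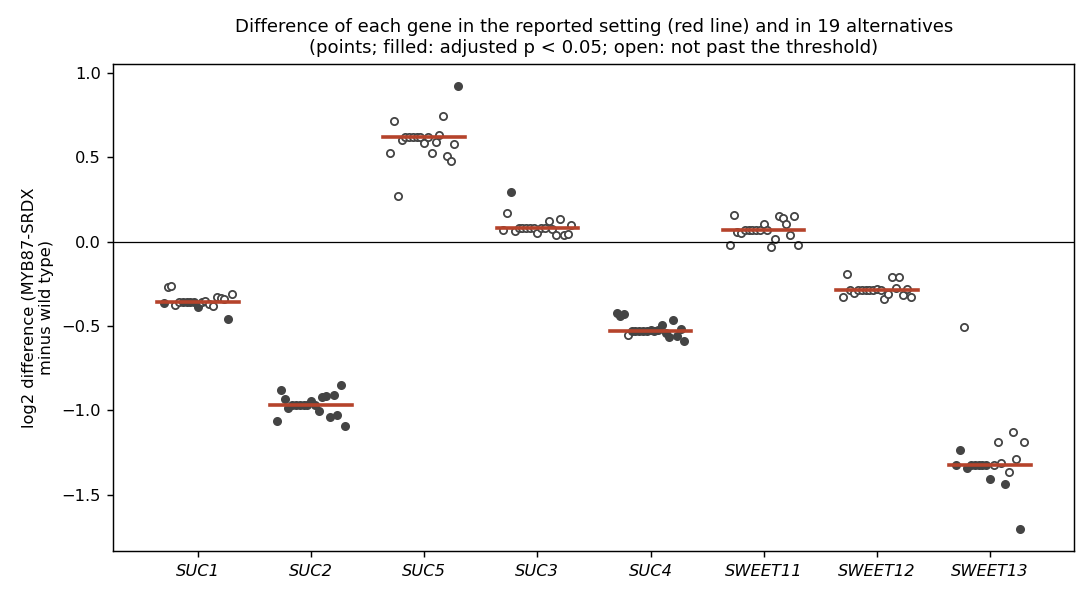
Log2 difference of each gene, MYB87-SRDX minus wild type, in the reported setting (red line) and in 19 alternatives (points, filled where the adjusted p was below 0.05). SUC2 is filled in 19 of 19 and SUC4 in 18 of 19, SWEET13 in 11 and SUC1 in 7, and SWEET11 lies on both sides of 0.

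The change of SUC2 against the SWEET exporters was also read within each array, where scaling between arrays cancels. The ratio of 2 probes has no meaning as a level, but its shift between groups does. Of 28 possible pairs of the 8 genes, 9 had ratios that did not overlap between groups. The share among all pairs of loci was not computed. The pairs given here were chosen after their values were seen, so they are a description with no test. The SUC2 to SWEET11 ratio was 0.502, 0.554, 0.495 and 0.567 in MYB87-SRDX, against 1.25, 1.34, 1.03 and 0.805 in wild type. The transgenic ratios lay close together and below all wild-type ratios. The ratio was 2.05-fold lower (log2 difference -1.04).

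The SUC2 to SWEET12 ratio was 1.94, 1.95, 1.47 and 2.18 in MYB87-SRDX, against 3.17, 3.51, 2.90 and 2.53 in wild type, without overlap. It was 1.61-fold lower (log2 difference -0.69). Between the exporters themselves the groups overlapped: the SWEET11 to SWEET12 ratio was 3.86, 3.52, 2.98 and 3.85 in MYB87-SRDX, against 2.53, 2.63, 2.81 and 3.14 in wild type. Against SWEET13, the dim probe that was itself lower, the SUC2 ratio lay the other way (log2 difference 0.36), with overlap. SUC2 was also lower, without overlap, against SUC3 (log2 difference -1.05) and SUC4 (-0.44), so its shift was not particular to the exporters. Against SUC1 and SUC5 the SUC2 ratios overlapped. SUC4 was lower against SWEET11 (-0.60), without overlap.

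**Figure D3:**
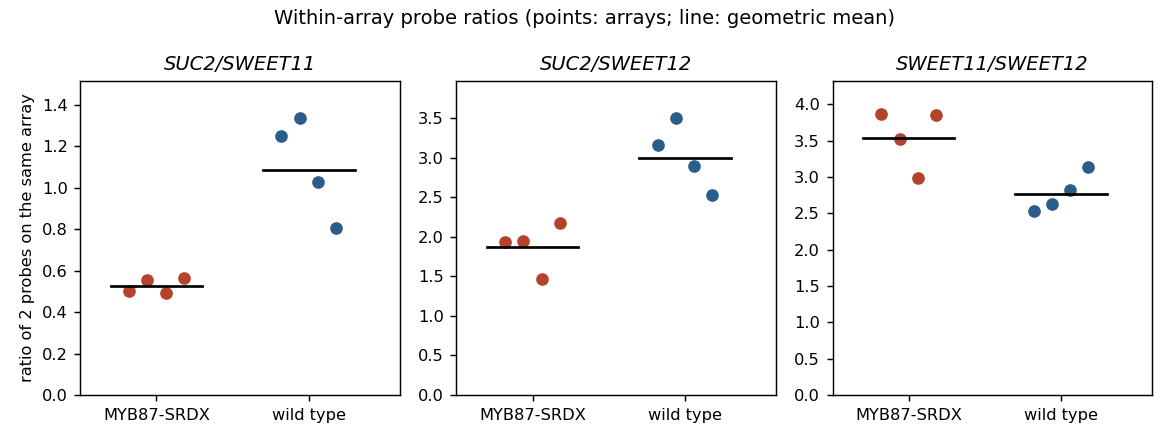
Ratio of 2 probes on the same array (linear axis from 0), with 1 point per array and a line at the geometric mean of each group. The SUC2 to SWEET11 ratio is 0.495 to 0.567 in MYB87-SRDX and 0.805 to 1.34 in wild type, and the SWEET11 to SWEET12 ratio overlaps between the groups.

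The rest of both families was sparsely expressed or went both ways. SUC7 was well above background on 1 of 4 MYB87-SRDX arrays and 3 of 4 wild-type arrays, at -1.97 ± 1.05 (SE) on the log2 scale (adjusted p = 0.193 by limma). It passed the filter through the wild-type arrays alone, so the direction of this difference is no independent support. SUC6, SUC8 and SUC9 were well above background on 0 of 8 arrays. Of 14 other SWEET genes 8 were tested, and 3 of them were lower, 2 higher and 3 did not pass. The shares over all loci were 12.5% lower and 15.1% higher. SWEET14, on 1 MYB87-SRDX and 2 wild-type arrays, and SWEET3, SWEET6, SWEET7, SWEET8 and SWEET9, on none, were left out by the filter on dim probes.

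SWEET2, which holds glucose back in root vacuoles, had a relative signal of 3.93, 3.24, 3.44 and 3.26 in MYB87-SRDX, against 1.48, 1.82, 1.53 and 1.62 in wild type. All transgenic arrays were far above all wild-type arrays. It rose 2.15-fold (log2 difference 1.10 ± 0.09 SE, adjusted p = 0.000792 by limma). SWEET4, a hexose facilitator of veins, had a relative signal of 0.0228, 0.0364, 0.0364 and 0.0228 in MYB87-SRDX, against 0.0914, 0.0808, 0.101 and 0.0679 in wild type. It was thus lower on every transgenic array, 2.93-fold (log2 difference -1.55 ± 0.21 SE, adjusted p = 0.00279 by limma). With normexp background correction the difference was -0.82, still past the threshold.

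SWEET15, a sucrose facilitator induced in senescing leaves, was 0.120, 0.157, 0.133 and 0.0947 in MYB87-SRDX, against 0.320, 0.267, 0.339 and 0.141 in wild type. Wild type replicate 4 lay among the transgenic arrays. SWEET15 fell by 1.02 ± 0.29 (SE) on the log2 scale (adjusted p = 0.0334 by limma), and the call held without wild type replicate 4 (0.00584) or MYB87-SRDX replicate 2 (0.0448) and was lost without any other array (0.0579 to 0.0856). SWEET1 (0.64) and SWEET5 (-0.63) were the other called genes, named after their values were seen. The count of 3 lower SWEET genes was 1 with the authors' values and 1 without wild type replicate 2, wild type replicate 3, MYB87-SRDX replicate 1 or MYB87-SRDX replicate 3. SWEET10, which stands directly beside SWEET13 with no annotated gene between, had a log2 difference of 0.69 with a 95% interval from -0.49 to 1.86, while SWEET13 fell by 1.32.

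**Figure D4:**
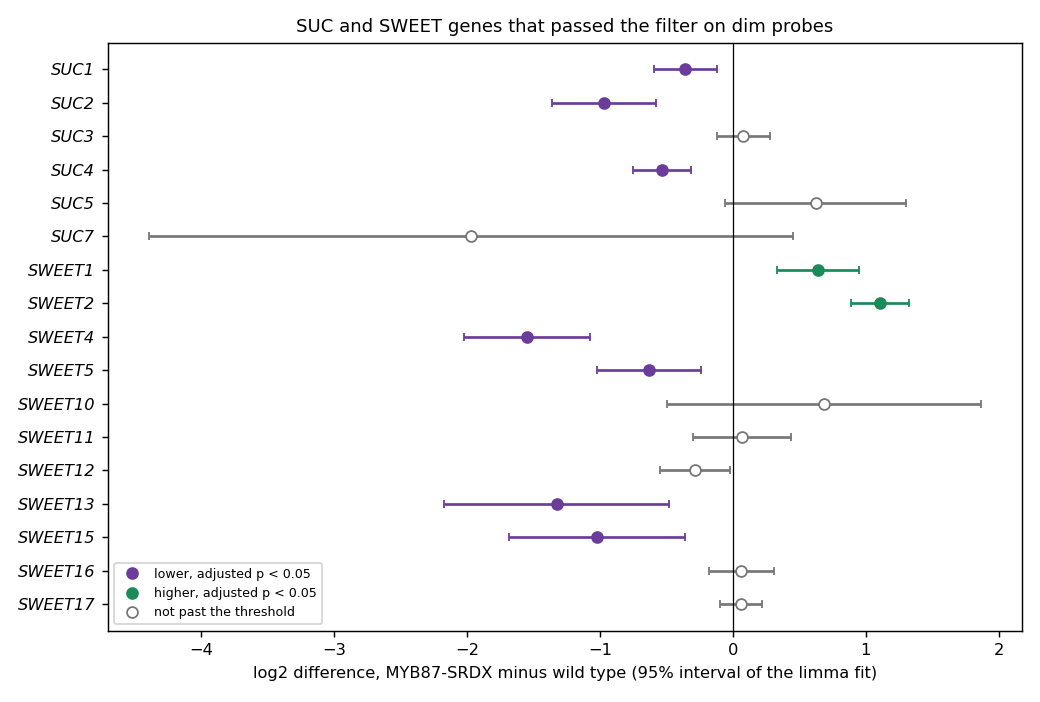
Log2 difference, MYB87-SRDX minus wild type, of every SUC and SWEET gene that passed the filter on dim probes, with the 95% interval of the limma fit. Purple marks genes lower, green genes higher, and open grey points genes not past the threshold: SWEET2 and SWEET1 are the genes called higher.

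AHA3, the companion cell proton pump that powers SUC2, had a relative signal of 2.50, 2.77, 2.13 and 3.34 in MYB87-SRDX, against 3.79, 4.50, 5.05 and 5.03 in wild type. The groups did not overlap. As for SUC2, MYB87-SRDX replicate 3 was the lowest and replicate 4 the highest transgenic array. The same 2 arrays were lowest and highest for SWEET11, which was not called, for AKT2, and for the mean of the phloem and xylem marker lists below. AHA3 fell by 0.78 ± 0.15 (SE) on the log2 scale (adjusted p = 0.00958 by limma). AKT2, a phloem potassium channel that backs sucrose loading, was 3.22, 3.1, 2.12 and 4.89 in MYB87-SRDX, against 3.74, 3.82, 4.40 and 4.24 in wild type. MYB87-SRDX replicate 4 was above all wild-type arrays and the others below them, and the difference of -0.34 ± 0.22 (SE) did not pass (adjusted p = 0.283 by limma). It was -0.14 without MYB87-SRDX replicate 3 and -0.55 (adjusted p = 0.0517 by limma) without MYB87-SRDX replicate 4.

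Of 20 monosaccharide carriers 14 were tested, with 3 lower, 3 higher and 8 not past the threshold, beside 12.5% lower and 15.1% higher over all loci. STP13, a high-affinity hexose symporter, was 0.458, 0.358, 0.385 and 0.629 in MYB87-SRDX, against 0.890, 0.752, 0.745 and 0.603 in wild type. MYB87-SRDX replicate 4 overlapped with wild type. STP13 fell by 0.73 ± 0.19 (SE) on the log2 scale (adjusted p = 0.0267 by limma). That call was kept without wild type replicate 1, wild type replicate 4 or MYB87-SRDX replicate 4, and lost without any other array (adjusted p = 0.0591 to 0.0706 by limma). TMT2, a sugar importer of the vacuole membrane, fell by 0.51 ± 0.08 (adjusted p = 0.00475 by limma). Its call held in 18 of 19 alternatives, where the largest adjusted p was 0.0615 by limma. The locus AT1G34580 of the same list fell by 1.04 ± 0.11 (adjusted p = 0.00138 by limma). The 3 genes called higher were 1 without wild type replicate 2 and 0 with the authors' values.

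Of 8 sucrose synthesis genes, all tested, 3 were lower, 1 was higher and 4 did not pass, beside 12.5% lower and 15.1% higher over all loci. SPP2, here the locus AT3G52340, is a sucrose phosphate phosphatase that completes sucrose synthesis. It was 3.37, 3.25, 3.52 and 2.97 in MYB87-SRDX, against 2.11, 2.25, 2.52 and 2.22 in wild type. SPP2 rose by 0.53 ± 0.08 (SE) on the log2 scale (adjusted p = 0.00453 by limma). All transgenic arrays were above all wild-type arrays. AT3G54270 of the same list fell by 0.60 ± 0.10 (SE), and with normexp its difference was -0.24 and its call was lost (adjusted p = 0.0583 by limma). SPS3F, a sucrose phosphate synthase, fell by 0.59 ± 0.16 (adjusted p = 0.0323 by limma), a call kept without wild type replicate 1 or MYB87-SRDX replicate 3 and lost without any other array (0.0523 to 0.0903), and with normexp the difference was -0.23. The count of 3 lower genes was 1 without wild type replicate 2, MYB87-SRDX replicate 1 or MYB87-SRDX replicate 4, 1 with normexp and 1 with the authors' values. The count of 1 higher gene was 2 without wild type replicate 4 and 0 with the authors' values.

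Of 16 genes for sucrose breakdown 14 were tested, with 4 lower, 0 higher and 10 not past the threshold. The shares over all loci were 12.5% lower and 15.1% higher. By limma, 6 of the 14 were below an unadjusted p of 0.05, a level that 41.4% of all loci reached. SUS4, a sucrose synthase, was 0.0652, 0.0622, 0.0599 and 0.136 in MYB87-SRDX, against 0.980, 0.599, 0.227 and 0.334 in wild type. All transgenic arrays were below all wild-type arrays, which themselves spread widely. SUS4 fell 6.06-fold (log2 difference -2.60 ± 0.47 SE, adjusted p = 0.00747 by limma). SUS6, a sucrose synthase of sieve elements, fell by 0.74 ± 0.14 (SE) on the log2 scale (adjusted p = 0.00794 by limma), and SUS3, named after its values were seen, fell by 0.57. The cell wall invertase gene CWINV5 was well above background on 0 of 4 MYB87-SRDX arrays and 4 of 4 wild-type arrays. It passed the filter through the wild-type arrays alone, so its adjusted p of 0.00424 by limma is no independent support. Its wild-type mean was 2.81-fold above the lowest signal well above background on the MYB87-SRDX arrays, a floor set by other probes. With normexp its log2 difference was -0.48, a smaller fall, and its call was lost (adjusted p = 0.0931 by limma). The count of lower genes was 3 with normexp, 3 with the authors' values, and 3 among loci well above background on all 8 arrays. The count of 0 higher genes was 1 without MYB87-SRDX replicate 3 or MYB87-SRDX replicate 4, and 2 with normexp.

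Transcripts known to respond to sugar supply were read as separate lists, induced by starvation and induced by sugar. All 3 genes of the list induced by sugar starvation were higher in MYB87-SRDX, as were 15.1% of all loci. DIN1, a senescence-associated gene repressed by sugar, was 5.59, 4.95, 3.49 and 2.96 in MYB87-SRDX, against 0.901, 0.911, 1.34 and 0.869 in wild type, without overlap. It rose by 2.06 ± 0.23 (SE) on the log2 scale (adjusted p = 0.00175 by limma). DIN10, a gene of the raffinose synthase family, rose by 1.12 ± 0.17 (adjusted p = 0.00420 by limma). DIN6, an asparagine synthetase, rose by 1.58 ± 0.49 (adjusted p = 0.0451 by limma), a call kept without wild type replicate 2 or MYB87-SRDX replicate 4 and lost without any other array (0.0748 to 0.113).

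None of the 6 genes induced by sugar was called, while 1 was called lower without MYB87-SRDX replicate 3. None had an unadjusted p below 0.05 in the limma fit, a level that 41.4% of all loci reached. Their differences ran from -0.99 to 0.27 on the log2 scale, and the mean log2 signal of the list varied between arrays of 1 group, from -1.23 to 1.11 in MYB87-SRDX and from -0.45 to 0.82 in wild type. Both lists are short, and the difference between them was not tested.

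Markers of the vascular cells were lower beside SUC2 and SUC4. Of 18 phloem markers, AHA3 and AKT2 included and sugar carriers left out, 17 were tested, at a median log2 difference of -0.43. With 12 lower, 0 higher and 5 not past the threshold, they stand beside 12.5% lower and 15.1% higher over all loci. An unadjusted p below 0.05 by limma was reached by 13 of them and by 41.4% of all loci. Their summed relative signal was 15.5 to 22.1 in MYB87-SRDX and 24.2 to 28.8 in wild type, with no overlap. Since each probe binds with its own strength, the brightest probes weigh most in such a sum. Each tested phloem marker was well above background on 2 or more arrays of each group. NEN4, named after its values were seen, was so on 2 MYB87-SRDX and 4 wild-type arrays. It passed the filter through the wild-type arrays alone and was not called. SULTR1;3, well above background on 2 MYB87-SRDX arrays and 1 wild-type array, was left out by the filter. The largest falls in the list were GLN1;4 (-1.63), SULTR2;1 (-1.57) and AHA3. The count of 12 was 6 with median scaling, 6 with the authors' values and 7 with a replicate block. It was also 7 without wild type replicate 2, wild type replicate 3 or MYB87-SRDX replicate 1.

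All 6 xylem markers were lower, in the reported setting and in all 19 alternatives, at a median log2 difference of -1.11. In the reported setting 12.5% of all loci were lower. LAC4, a laccase of lignin formation, fell by 1.51 ± 0.19 (SE), XCP1, a xylem protease, by 1.34 ± 0.23 and CESA8, a cellulose synthase of secondary walls, by 1.19 ± 0.18 on the log2 scale. The adjusted p-values of these 3 genes were 0.00256, 0.00598 and 0.00388 by limma. The summed relative signal of the xylem list was 4.29 to 5.47 in MYB87-SRDX and 8.57 to 13.5 in wild type.

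Other tissues did not move as 1 block. Over all loci 12.5% were called lower and 15.1% higher. Of 5 mesophyll markers LHCB1.3 fell by 0.98, LHCB2.1 rose by 0.87 and 3 did not pass. The summed relative signal of the mesophyll list was 269 to 317 in MYB87-SRDX and 269.7 to 364 in wild type, set mostly by the 3 genes that did not pass. The 2 LHCB genes belong to families of near-identical copies whose transcripts 1 probe may share, and the call of LHCB2.1 was lost without wild type replicate 2, wild type replicate 3 or MYB87-SRDX replicate 1 (adjusted p = 0.0617 to 0.0707 by limma). Without wild type replicate 1, 2 mesophyll markers were called lower. None of 4 endodermis markers and none of 4 root hair markers was called, and 1 root hair marker was called higher without wild type replicate 1. In either list 0 were at an unadjusted p below 0.05 by limma, beside 41.4% of all loci. Both root lists varied widely within groups: the mean log2 signal of the root hair list ran from -0.29 to 0.32 in MYB87-SRDX and from -0.88 to 0.93 in wild type. Of 3 guard cell markers 2 were lower, and the list had a median log2 difference of -0.65, beside -0.43 for the phloem list. Lower calls were thus not limited to the vascular lists. KAT1, a potassium channel, fell by 0.91, FAMA by 0.65 (lost without wild type replicate 2, adjusted p = 0.0516 by limma), and MYB60 had 0.25 (adjusted p = 0.0671 by limma). The part of vascular cell content in the values of SUC2, SUC4 and AHA3 was not tested.

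**Figure D5:**
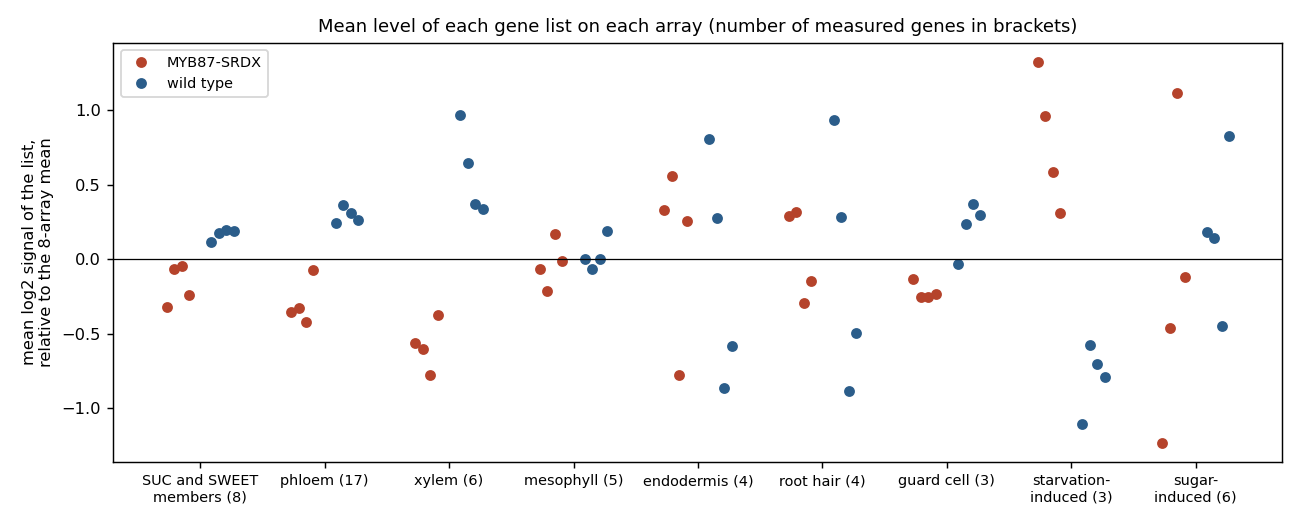
Mean log2 signal of each gene list on each array, relative to the gene's mean over the 8 arrays, with 1 point per array. In this mean, the MYB87-SRDX arrays lie below all wild-type arrays for the 8 sucrose carrier and SWEET genes and for the phloem, xylem and guard cell lists. They lie above them for the starvation-induced list, and overlap with them for the mesophyll, endodermis, root hair and sugar-induced lists. The summed relative signal of the 8 genes does overlap, at 12.1 to 15.8 in MYB87-SRDX and 15.4 to 19.3 in wild type. So does that of the guard cell list, at 3.09 to 3.48 in MYB87-SRDX and 3.34 to 4.51 in wild type.

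Likeness of profiles over the 8 arrays was measured as the root mean square difference between 2 log2 profiles, each centred on its own mean, and a small value means close profiles. Among the 8 genes SUC4 and SWEET12 were closest at 0.19, followed by SUC1 with SWEET12 and SUC1 with SUC4, both at 0.21. SUC2 and its closest partner, SUC4, differed by 0.27. Profiles that vary little give small values, and the median over 20254 other loci was 0.284 for SWEET12, 0.298 for SUC1 and 0.357 for SUC4. The nearest of 20254 other loci to SUC2 were AT3G61750 (0.106), ZIP7 (0.109) and AT3G03440 (0.110), beside a median of 0.576 over those loci. The nearest to SUC4 were AT2G41130 (0.0554), AT2G20550 (0.0678) and AT4G14290 (0.0702), and to SUC1 they were HTR11 (0.0553), SHM7 (0.0631) and AT4G21215 (0.0681).

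SUC3 lay nearest to CNX3 (0.0416), AT4G00500 (0.0448) and AT1G11390 (0.0470). For SWEET11 the nearest loci were SPL4 (0.0748), RVE2 (0.0762) and AT2G18560 (0.0788), and for SWEET12 they were MSL5 (0.0475), AGO2 (0.0497) and AGL65 (0.0507). The dim probes varied more between arrays and had larger values, with medians of 0.538 for SUC5 and 0.864 for SWEET13. The nearest to SUC5 was AT2G32160 at 0.218, followed by AT3G47010 (0.220) and WOX1 (0.221). The nearest to SWEET13 was AT4G04760 at 0.307, followed by BETA-VPE (0.307) and AT1G61550 (0.310). These likenesses rest on 8 arrays that share slide and group, and they carry no test.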

How the data were processed

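Per the submitters' processing notes, spots were read with Agilent Feature Extraction 9.1.3.1. Each deposited scanner table gives linear spot intensity. The authors' deposited value table holds the same processed intensity times a constant, 0.00117 on the MYB87-SRDX slide and 0.00109 on the wild-type slide, found by dividing the tables. The column medians of that table were 0.108, 0.133, 0.114 and 0.114 in MYB87-SRDX and 0.129, 0.150, 0.123 and 0.105 in wild type. The sources used here do not give the reason for the unequal constants.

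From these files, the log2 processed signal of 37685 non-control spots per array was reduced by the array's 75th percentile, outlier-flagged spots (3 to 44 per array) were set to missing and spots of a probe were averaged. Spots well above background made up 63.1% to 65.5% of an array. A probe was kept if well above background on 3 or more arrays of either group, and a locus was read from its brightest kept probe. Symbols came from the RefSeq gene table (TAIR10.1) for 25449 of 25665 loci. In R 4.3.3, lmFit and eBayes of limma 3.58.1 tested 20336 loci, of which 5604 passed. The steps were tested on simulated data.

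The 8 genes, the lists and the rule for named genes were chosen with earlier results of these data known. The rule takes the 8 genes, from each other list up to 3 called loci with the largest difference and any locus of a list of 3 or fewer, the 3 nearest profiles of each gene, and MYB87. Genes named beyond it are said to be. Nothing in the labels says that samples of a group came from separate cultures, so the p-values reflect only how these samples vary, which may be technical, and the number of arrays limits the precision. Alternatives were quantile and median scaling, normexp with an offset of 50, the authors' values, other filters and variance models, the mean of a locus's probes, array weights, a replicate block and leaving out each array. Normexp used median spot signals and left out 8 spots with a local background above 200, chosen after seeing the data. Probe and promoter sequences were not used here.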

Additional observations from a re-analysis of the deposited data

Results flagged for a closer look

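In the 70 groups of 4 arrays examined, 3 held an array whose gap to the nearest other array took most of the group's range, and chance flags about 1 group in 20. None of the 3 was among the 16 groups of the 8 sucrose carrier and SWEET genes. SPS3F was lowest in MYB87-SRDX replicate 4, with a relative signal of 0.0351, while the other MYB87-SRDX arrays lay between 0.0486 and 0.0509. SUS4 was highest in MYB87-SRDX replicate 4, at 0.136, and the others lay between 0.0599 and 0.0652. DIN1 was highest in wild type replicate 3, at 1.34, and the other wild-type arrays lay between 0.869 and 0.911.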

How the results depend on the processing

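Over all loci 5604 were called, against 2197 with the authors' values, 3612 with the replicate block and 2927 to 5987 when 1 array was left out (2927 without wild type replicate 2, 3271 without MYB87-SRDX replicate 1). The share of higher among called loci was 54.7%, and 66.0% with median scaling (2675 higher, 1381 lower), where the median difference of all loci was 0.10 instead of 0.01. Of the 8 sucrose carrier and SWEET genes 4 were lower, against 2 with normexp, 2 with the authors' values, 2 with the replicate block (SUC1 and SWEET13 lost) and 2 to 4 when 1 array was left out. The 0 higher genes became 1 with normexp (SUC3) and 0 to 1 when 1 array was left out (SUC5). SWEET11 changed sign, at -0.0196 with quantile scaling, -0.0313 without wild type replicate 1 and -0.0185 without MYB87-SRDX replicate 4. Of 152 values of the 8 genes over 19 alternatives, 126 kept direction and side of the threshold, 21 lost the call, 2 gained one and 3 changed sign, and the cause was not tested. SUC2 kept its call in all 19, between -1.09 and -0.85. Same-numbered samples of the groups deviated with correlations of 0.0950, 0.0899, 0.154 and -0.223, and other pairs between the groups from -0.319 to 0.293. With 4 arrays per group, these values cannot settle whether the numbers pair the samples. The dim probes of SUC5 and SWEET13, near local background, limit what their values can show.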
